A study of Homo sapiens with 2 samples.

Results

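Several microRNAs (miRNAs) lie inside introns of genes that run lipid and energy metabolism, and the levels of 6 such hairpins are described here in A375 cells, an established human melanoma line. The hairpins are mir-33a (host gene SREBF2), mir-33b (SREBF1), mir-103a-1 (PANK3), mir-103a-2 (PANK2), mir-107 (PANK1) and mir-378a (PPARGC1B). They were chosen by name and host gene with earlier results of these data known, and every deposited row of either arm was taken. This gave 10 rows and 9 mature names of the 1497 in the table, since miR-103a-3p comes from both mir-103a hairpins.

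A miRNA is cut from a hairpin in a longer transcript, and 1 strand of the resulting duplex, the guide, is usually kept to repress messenger RNAs through its seed, bases 2 to 8. An intronic miRNA can be made from the transcript of its host; host transcripts were not measured here. SREBF2 encodes a transcription factor that switches on cholesterol synthesis and uptake, and SREBF1 one that switches on fatty acid synthesis, while miR-33a and miR-33b repress ABCA1, which exports cholesterol. Mice lack miR-33b. The PANK genes encode pantothenate kinases, which start the synthesis of coenzyme A, and in mice miR-103 and miR-107 lower insulin sensitivity by repressing caveolin-1. PPARGC1B encodes PGC-1β, a coactivator of mitochondrial genes, and in mice miR-378 acts on CRAT and its partner arm on MED13, both genes of energy metabolism.

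The study profiled small RNA in 1 group of 2 libraries, replicate 1 and replicate 2. Both came from A375 cells that were left to grow for 24 h and then given DMSO, the solvent used as a vehicle, for 48 h. The labels name no genetic change, no drug and no untreated cells, so no condition can be compared and the spread between libraries is the measure of error. Nothing says whether the replicates came from separate cultures or are partly technical. The libraries held 10816826 and 15428446 read assignments, and values are RPM, reads per 1000000 of these. Each read was worth 0.0924 RPM in replicate 1 and 0.0648 RPM in replicate 2. Of 6 miRNAs listed for melanocytes and melanoma, 5 had at least 10 RPM in both libraries, against 335 of all 1497 names (22.4%). The exception was miR-211-5p, made from the melanocyte gene TRPM1, with 3 reads and 2 reads. The marker lists were chosen with earlier results of these data known, so such counts do not test the cell type. Of the markers of organs where the intronic miRNAs are best known, the liver list was split, with miR-192-5p at 4490 RPM and 4715 RPM and miR-122-5p at 3 reads and 8 reads. Of the 3 muscle miRNAs, miR-1-3p and miR-206 had no row and miR-133a-3p had 7 reads and 2 reads. Of the other marker lists, both names of the adipose and endothelial list reached 10 RPM in both libraries. So did 1 of 5 blood names and 1 of 3 epithelial names.

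The mature sequences show which members act as one family. They are given 5′ to 3′ from RefSeq (GRCh38.p14) with the seed in capitals.
hsa-miR-33a-5p: gUGCAUUGuaguugcauugca
hsa-miR-33b-5p: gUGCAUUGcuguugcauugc
hsa-miR-103a-3p: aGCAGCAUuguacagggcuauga
hsa-miR-107: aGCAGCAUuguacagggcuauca
hsa-miR-378a-3p: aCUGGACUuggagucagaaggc
hsa-miR-33a-3p: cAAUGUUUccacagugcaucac
hsa-miR-33b-3p: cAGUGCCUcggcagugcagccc
hsa-miR-103a-2-5p: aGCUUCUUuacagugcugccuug
hsa-miR-378a-5p: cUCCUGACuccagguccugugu

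The 5p arms of miR-33a and miR-33b have 1 seed between them and differ over their 20 common bases at U9C and A10U (miR-33a-5p first, positions counted from 1 at the 5′ end), just after the seed. MiR-103a-3p and miR-107 have another seed and differ at G22C alone (miR-103a-3p first). Their first 21 bases are the same, so a read that ends before base 22 cannot be told between them. The opposite arms have 4 further seeds, all different, so mir-33a and mir-33b agree in the 5p seed (UGCAUUG) and not in the 3p seed (AAUGUUU for mir-33a, AGUGCCU for mir-33b). The values of each arm are thus given apart.

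The hosts place the hairpins alike within each family. In GENCODE 29 (GRCh38) mir-33a lies in intron 16 of SREBF2 on chromosome 22 (41900944 to 41901012, plus strand), and mir-33b in intron 16 of SREBF1 on chromosome 17 (17813836 to 17813931, minus strand). The 3 hairpins of the miR-103 and miR-107 family lie in intron 5 of their PANK genes. These are mir-103a-1 in PANK3 on chromosome 5 (168560896 to 168560973, minus strand), mir-103a-2 in PANK2 on chromosome 20 (3917494 to 3917571, plus strand) and mir-107 in PANK1 on chromosome 10 (89592747 to 89592827, minus strand). They start 419, 443 and 369 bases after the upstream exon, although the introns span 2235, 1620 and 4419 bases. Mir-33a starts 445 bases into an intron of 2471 bases, and mir-33b 313 bases into one of 475 bases, 66 bases short of the next exon. Mir-378a stands apart in intron 1 of PPARGC1B on chromosome 5 (149732825 to 149732890, plus strand), an intron of 90012 bases, 2404 bases after the first exon. Each hairpin was on the strand of its host and in an intron of every coding transcript of the host that spans it. The build behind the deposited values is not given in the sources used here.

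**Figure D1:**
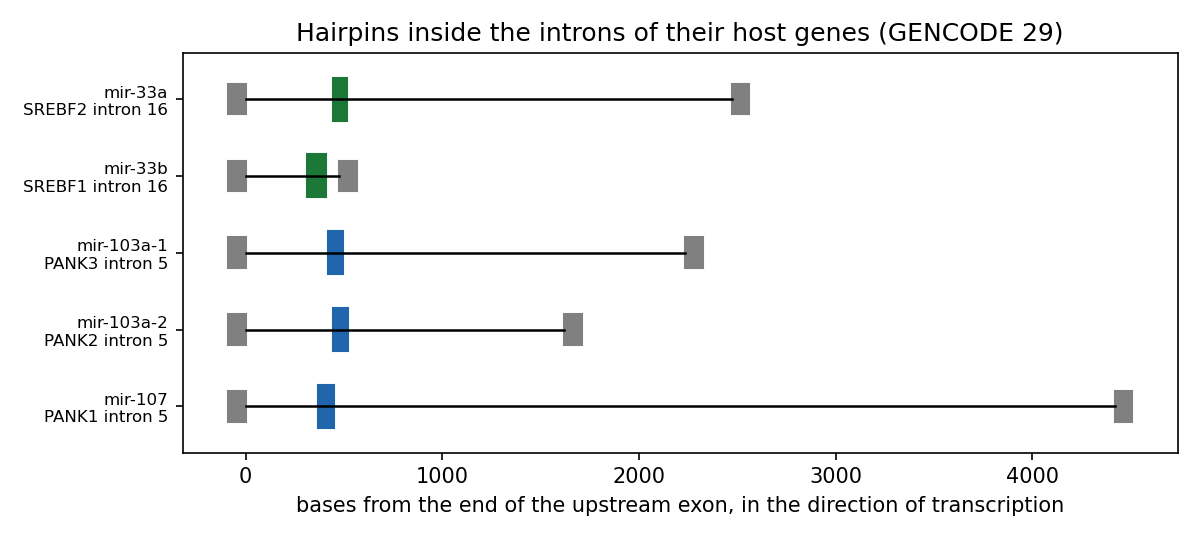
Position of 5 hairpins (coloured boxes, to scale) within the intron that holds them, in bases from the end of the upstream exon. Grey boxes mark where the flanking exons begin and are not drawn to their length. The 3 PANK hairpins start between 369 and 443 bases after the exon, and mir-33b lies in the shortest intron shown, of 475 bases. PPARGC1B is left out because its intron of 90012 bases would not be readable on this axis.

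Of the 9 mature names, 7 stood at 10 RPM or more in both libraries, against 335 of all 1497 names (22.4%). The members were chosen with earlier results of these data known, so this share is descriptive. Together the members held 1.25% of the miRNA pool in replicate 1 and 0.982% in replicate 2, where the pool is the sum of RPM with each mature name counted by its highest row. MiR-103a-3p and miR-378a-3p alone made up 90.4% and 90.5% of the members' RPM. Means spanned from 1.35 RPM for miR-103a-2-5p to 4357 RPM for miR-103a-3p, with the guides of the PANK and PPARGC1B hairpins at the top and the SREBF guides far below.

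The miR-103 and miR-107 family led. MiR-103a-3p had 4959 RPM in replicate 1 and 3754 RPM in replicate 2, from 53642 and 57925 reads, and stood at rank 36 by mean. MiR-107 had 702 RPM and 535 RPM and stood at rank 79. Both were higher in replicate 1, by 1.32-fold and 1.31-fold, so their ratio hardly moved. MiR-103a-3p was 7.06-fold above miR-107 in replicate 1 and 7.02-fold above it in replicate 2, a mean log2 ratio of 2.81 ± 0.01 (SD, n = 2). Put as a share of the family's reads, miR-103a-3p held 87.6% (95% exact Clopper-Pearson interval 87.3 to 87.9) in replicate 1 and 87.5% (87.3 to 87.8) in replicate 2. Intervals on reads cover counting error only, because reads from PCR are not independent molecules. How reads that end before base 22 were assigned is not stated, so the ratio and the share may depend on that rule. RPM of different miRNAs are also not exact molar ratios, as adapters ligate to some sequences better than to others.

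How much of miR-103a-3p came from each hairpin cannot be read from these values. The row of mir-103a-2 held 53642 reads and 57925 reads and that of mir-103a-1 held 53342 and 57422, so the rows differed by 300 and 503 reads, or 0.559% and 0.868% of the higher row. The same reads thus appear to have been assigned to each hairpin, and the higher row is used here. With the rows summed, the family stood at 9302 RPM in place of 4976 RPM, and miR-103a-3p over miR-107 at a log2 ratio of 3.81. The hairpins show how little tells the copies apart, with miR-103a-3p or miR-107 in capitals:
mir-103a-1: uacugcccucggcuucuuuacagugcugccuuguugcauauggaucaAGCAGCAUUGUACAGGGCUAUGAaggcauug
mir-103a-2: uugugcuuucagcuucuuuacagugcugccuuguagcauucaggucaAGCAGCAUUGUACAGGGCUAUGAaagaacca
mir-107: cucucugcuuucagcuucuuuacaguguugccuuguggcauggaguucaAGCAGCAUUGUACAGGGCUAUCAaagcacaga

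Around the mature sequence the mir-103a hairpins agree in the 3 bases before it and in 1 base after it. A read must reach past those bases, or come from the other arm, to belong to 1 copy. The other arm is not free of this either: miR-103a-1-5p, which has a RefSeq sequence and no row in the table, differs from miR-103a-2-5p at A1G alone (miR-103a-2-5p first). MiR-103b, annotated on the opposite strand of both mir-103a hairpins, had no row.

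MiR-378a-3p had 3820 RPM in replicate 1 and 3199 RPM in replicate 2, from 41325 and 49352 reads, at rank 39 in each library. It stood just under miR-103a-3p, which was 1.30-fold and 1.17-fold higher within the libraries. The means, 4357 ± 852 RPM for miR-103a-3p and 3510 ± 440 RPM for miR-378a-3p (SD, n = 2), overlap within their SD, but within a library their log2 ratio was 0.30 ± 0.10 (SD, n = 2) and the order was the same in both. Its 10 listed relatives, miR-378b to miR-378j and miR-422a, were low beside it. Their summed level was 75.0 RPM and 62.7 RPM, or 1.96% of miR-378a-3p in each library. Of these 10, miR-378i (30.9 and 24.8 RPM) and miR-378d (23.2 and 24.6 RPM) reached 10 RPM in both libraries, and miR-378c followed at 10.4 and 6.48 RPM. Some relatives differ from miR-378a-3p by few bases, which bears on how their reads are assigned. They are shown with the seed in capitals:
hsa-miR-378a-3p: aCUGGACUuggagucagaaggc
hsa-miR-378i: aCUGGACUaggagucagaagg
hsa-miR-378c: aCUGGACUuggagucagaagagugg
hsa-miR-378f: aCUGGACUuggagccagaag

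MiR-378i differs from miR-378a-3p at U9A, miR-378f at U14C and miR-378c at G21A and C22G before its longer end (miR-378a-3p first in each). Whether the reads of these relatives came from their own hairpins or from altered reads of miR-378a-3p was not tested. Over all names with a RefSeq sequence, 7 carry the seed CUGGACU, and miR-378a-3p made up nearly all of their 3868 and 3234 RPM. MiR-378d is not among these 7, which does not show that it lacks the seed. Names without a RefSeq sequence could not be searched for the seed, so the sum may be incomplete.

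The miR-33 family was much lower. MiR-33b-5p had 134 RPM in replicate 1 and 116 RPM in replicate 2, from 1450 and 1791 reads, at rank 148 by mean. MiR-33a-5p had 18.5 RPM and 14.6 RPM, from 200 and 226 reads, at rank 309. The libraries did not overlap between the paralogs: the lower value of miR-33b-5p lay far above the higher one of miR-33a-5p. MiR-33b-5p was 7.25-fold and 7.92-fold higher, a share of 87.9% (86.2 to 89.4) and 88.8% (87.3 to 90.1) of the family's reads, so most reads with this seed had the sequence of the SREBF1 hairpin. The family's guides summed to 153 RPM and 131 RPM, against 5662 RPM and 4289 RPM for the miR-103a and miR-107 guides. No other name in the table with a RefSeq sequence had the miR-33 seed or the miR-103 and miR-107 seed.

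**Figure D2:**
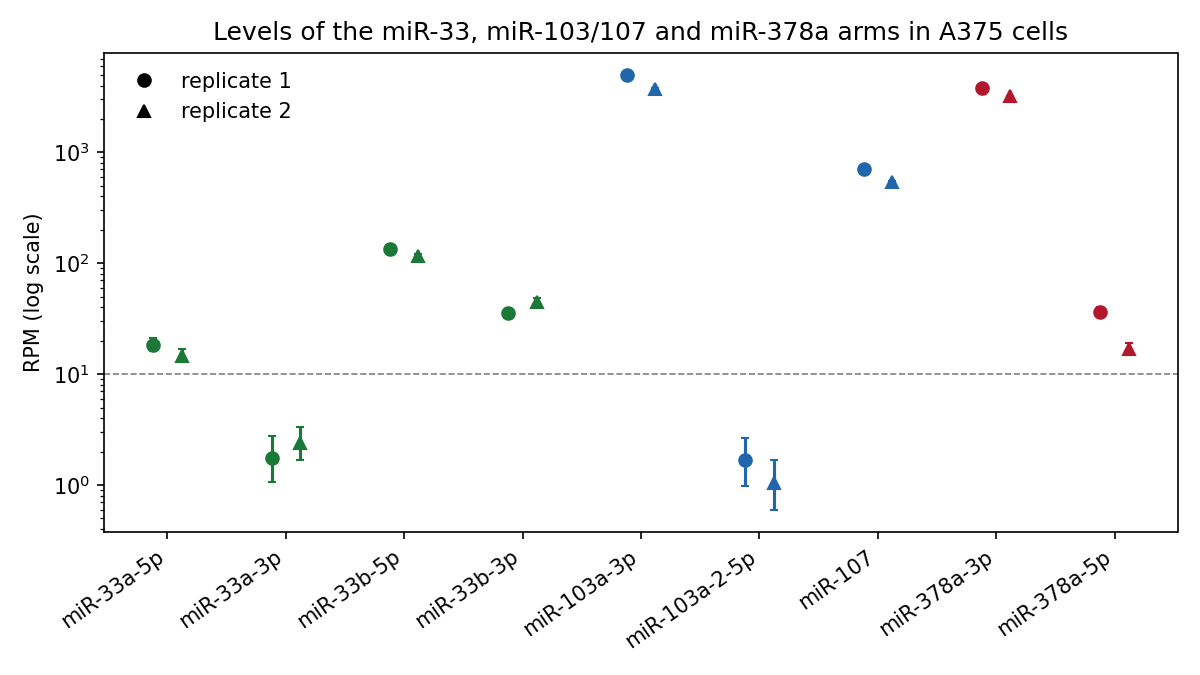
RPM on a log axis of each mature arm in replicate 1 (circles) and replicate 2 (triangles), with exact 95% Poisson intervals that cover counting error only; colours mark the miR-33, miR-103 and miR-107 and miR-378a hairpins and the dashed line 10 RPM. MiR-103a-3p and miR-378a-3p lie between 3199 and 4959 RPM, miR-33a-5p at 18.5 and 14.6 RPM, and miR-33a-3p and miR-103a-2-5p near 2 RPM or under.

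The opposite arms were next compared with the guides. From mir-33b the 3p arm was well represented: miR-33b-3p had 35.3 RPM and 44.9 RPM, above miR-33a-5p, the guide of the other paralog, by 1.91-fold and 3.07-fold. The 5p arm of mir-33b was thus only 3.80-fold above its 3p arm in replicate 1 and 2.58-fold in replicate 2. From mir-33a the 3p arm was near the limit of counting, with 19 and 37 reads for miR-33a-3p, or 1.76 RPM (95% exact Poisson interval 1.06 to 2.74) and 2.40 RPM (1.69 to 3.31). The 5p arm of mir-33a was 10.5-fold and 6.11-fold higher.

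Mir-103a-2 and mir-378a favoured the 3p arm instead. MiR-103a-2-5p had 18 and 16 reads, or 1.66 RPM (0.986 to 2.63) and 1.04 RPM (0.593 to 1.68). MiR-103a-3p, whose reads are shared with mir-103a-1, stood 2980-fold and 3620-fold above it. MiR-378a-5p had 36.4 RPM and 16.7 RPM, so miR-378a-3p was 105-fold higher in replicate 1 and 191-fold higher in replicate 2. No 5p arm of mir-103a-1 or mir-107 had a row, so the arms were compared for 4 of the 6 hairpins.

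On the log2 scale with 1 RPM added to each arm, the ratio of 5p over 3p was 1.62 ± 0.38 for mir-33b, 2.51 ± 0.44 for mir-33a, -7.09 ± 0.58 for mir-378a and -10.86 ± 0.01 for mir-103a-2 (SD, n = 2 each). The small SD of mir-103a-2 rests on the 1 RPM added to a 5p arm of 18 and 16 reads: it was 0.16 with 0.1 RPM added and 0.23 with 10 RPM added. Among 137 hairpins that had rows for both arms and 100 RPM or more in sum, the median size of this ratio was 5.55, with 81 toward the 5p and 56 toward the 3p arm. Mir-33b was number 14 from the most balanced and mir-103a-2 number 131, close to the one-sided end. The 3p reads of mir-103a-2 are shared with mir-103a-1, so its ratio and place do not describe that hairpin alone. Mir-33a, at 18.6 RPM in sum, was below the level for this ranking.

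**Figure D3:**
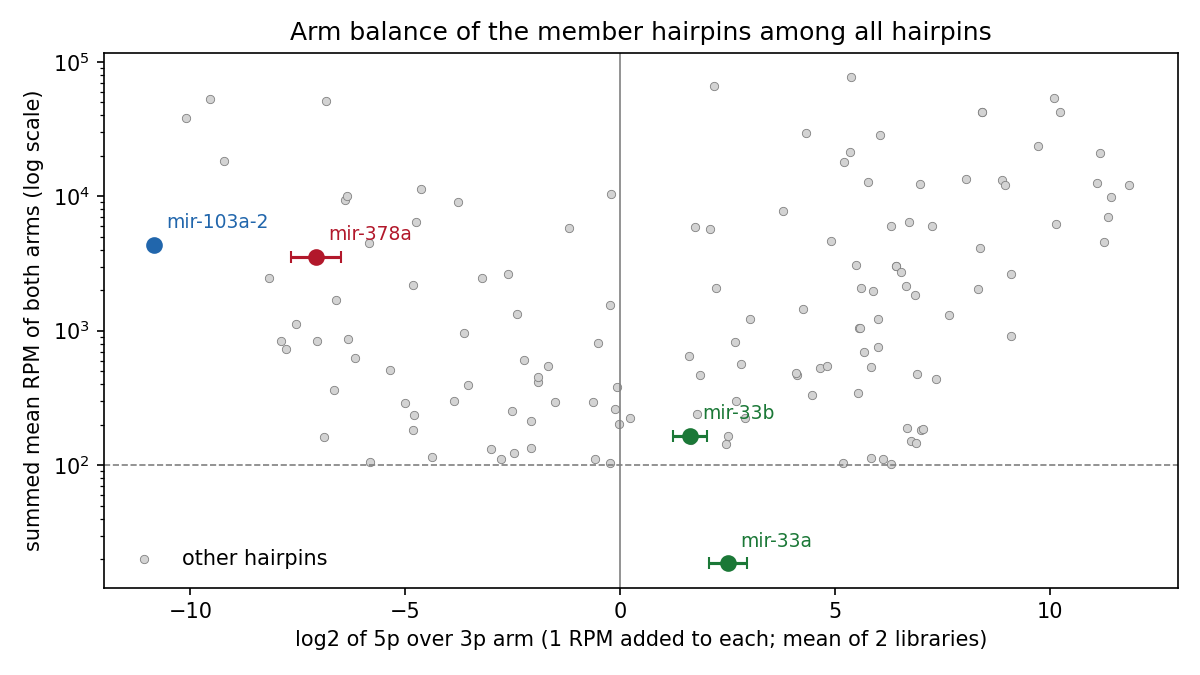
Log2 ratio of the 5p over the 3p arm (horizontal axis, mean of 2 libraries, 1 RPM added to each arm) against the summed mean RPM of both arms on a log axis. Coloured points are the member hairpins with SD bars, grey points the other hairpins at or above the dashed line of 100 RPM. Mir-33b and mir-33a lie right of 0 at 1.62 and 2.51, mir-378a and mir-103a-2 left of it at -7.09 and -10.86. The 3p reads of mir-103a-2 are shared with mir-103a-1.

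The libraries were compared to see which of these values are stable. Two-sided Fisher's exact tests on reads, with Benjamini-Hochberg adjustment over 869 mature names, called 1 of the 9 members, against 40 of all names tested (4.60%), at an adjusted p under 0.05 and a fold above 2. That member was miR-378a-5p, 2.18-fold higher in replicate 1 with 394 reads against 258 in the deeper replicate 2 (adjusted p = 7.5e-22, Fisher's exact test). Most calls were at low levels: of the 346 names with a mean of 10 RPM or more, 6 were called, miR-378a-5p among them. On the adjusted p alone, 6 of the 9 members passed, against 34.5% of all names tested. MiR-33a-5p (adjusted p = 0.052), miR-33a-3p (0.48) and miR-103a-2-5p (0.32) did not pass by Fisher's exact test, and these 3 had the fewest reads. Such a test compares these libraries and covers counting error only, so deep names pass at small folds, as miR-378a-3p did at 1.19-fold.

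Of the 9 members, 7 were higher in replicate 1, and the exceptions were the 3p arms of both miR-33 hairpins. MiR-33b-3p was 1.27-fold and miR-33a-3p 1.35-fold higher in replicate 2, while their 5p arms were 1.15-fold and 1.26-fold higher in replicate 1. Across the 346 names with a mean of 10 RPM or more, replicate 1 was higher by a median log2 of 0.10, and 59.2% of them were higher there. After rescaling by the median ratio of the 335 names at 10 RPM or more in both libraries, 1.07, the same direction held for all 9 members, with 7 higher in replicate 1. With 1 RPM added, log2 of replicate 1 over replicate 2 was 0.40 for miR-103a-3p, 0.39 for miR-107, -0.34 for miR-33b-3p and 0.32 for miR-33a-5p. These were larger in size than the median of the 346 names, 0.25. That of miR-378a-3p (0.26) was close to the median and that of miR-33b-5p (0.21) was smaller. The arm ratio of mir-378a moved by 0.82 between libraries, the number 9 shift of the 137 hairpins, against a median of 0.28, and that of mir-33b by 0.54, number 35.

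**Figure D4:**
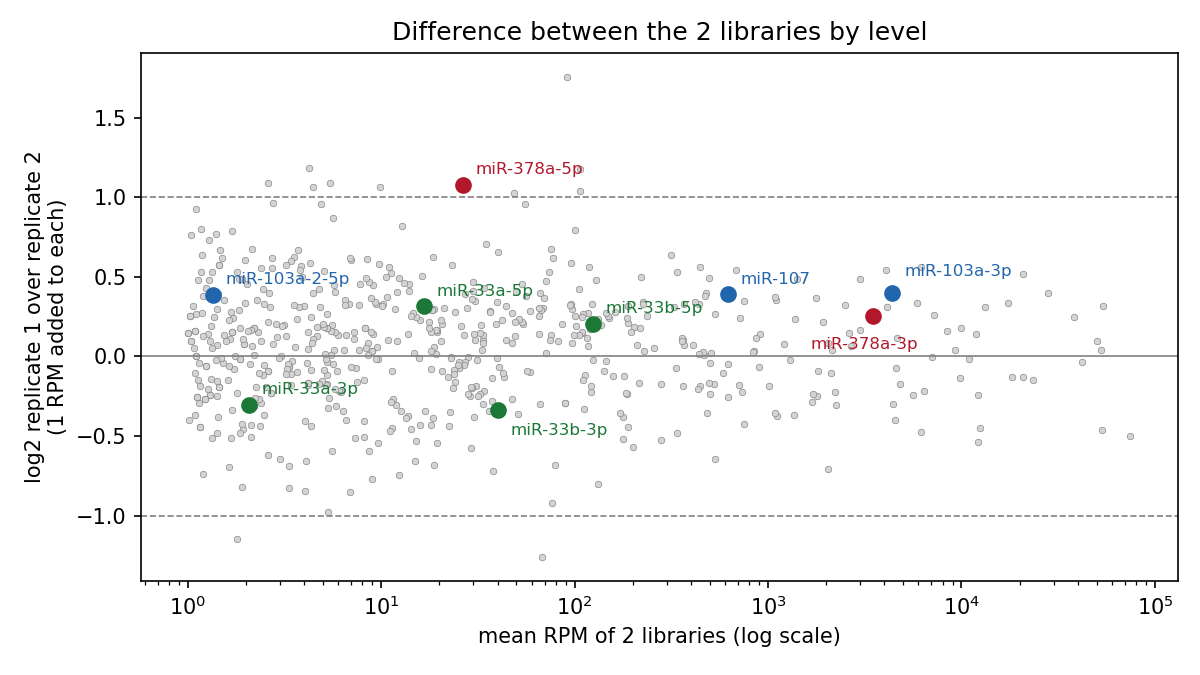
Log2 of replicate 1 over replicate 2 (1 RPM added to each) against mean RPM on a log axis, for names with a mean of 1 RPM or more. Coloured points are members and grey points the other miRNAs, and dashed lines mark a 2-fold difference. MiR-378a-5p is the only member outside those lines, and miR-33a-3p and miR-33b-3p are the members below 0.

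Placed among all miRNAs in introns of coding genes, the 6 hairpins covered the upper part of the range. Of 1095 hairpins, 1094 were found in GENCODE 29, and 497 of these lay in an intron of a coding gene on its strand, with no exon overlap. With arms summed, all 6 member hairpins reached 10 RPM in both libraries, against 114 of the 497 (22.9%) and 24.2% of all hairpins. As the members were chosen with earlier results known, this count is descriptive as well. The median of the 497 was 0.643 RPM. Mir-103a-2 ranked 15, mir-103a-1, which shares its reads, 16, mir-378a 18, mir-107 39, mir-33b 63 and mir-33a 109.

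**Figure D5:**
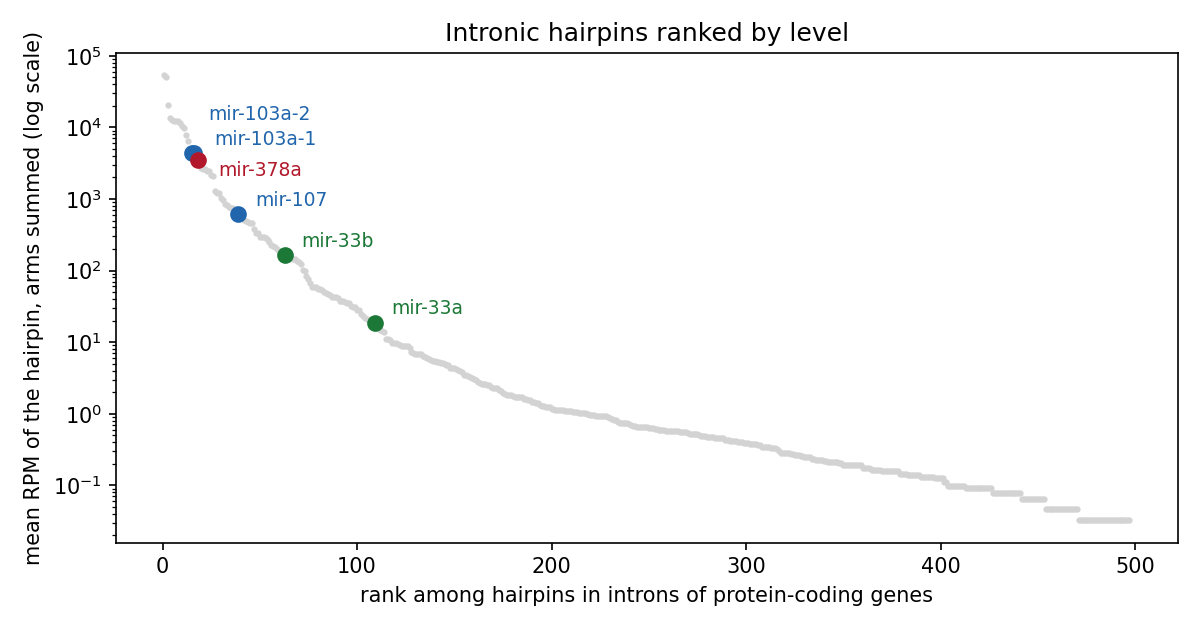
Mean RPM of each of the 497 hairpins in introns of coding genes (arms summed, log axis) against rank, with the 6 member hairpins coloured. The PANK2, PANK3 and PPARGC1B hairpins lie within the first 18, and mir-33a at rank 109.

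In order of mean level, the members were miR-103a-3p, miR-378a-3p, miR-107, miR-33b-5p, miR-33b-3p, miR-378a-5p, miR-33a-5p, miR-33a-3p and miR-103a-2-5p. Ranges of mean ± SD overlapped between miR-103a-3p and miR-378a-3p, between miR-33b-3p and miR-378a-5p, between miR-378a-5p and miR-33a-5p, and between the last 2 names. These SDs are taken across libraries. Compared within each library, miR-103a-3p was above miR-378a-3p in both, beyond counting error. MiR-378a-5p was 1.97-fold above miR-33a-5p in replicate 1 and 1.14-fold in replicate 2, where its share of the pair's reads, 53.3% (48.7 to 57.8), was not told from equal. MiR-33b-3p was level with miR-378a-5p in replicate 1 (49.2%, 45.7 to 52.8) and 2.69-fold above it in replicate 2. MiR-33a-3p was level with miR-103a-2-5p in replicate 1 (51.4%, 34.4 to 68.1) and 2.31-fold above it in replicate 2. The miRNAs next to the leading members in the whole table were miR-25-3p (4417 ± 642 RPM) above miR-103a-3p and let-7g-5p (4115 ± 629 RPM) below it, and miR-423-3p (4065 ± 1067 RPM) and miR-31-5p (3004 ± 713 RPM) around miR-378a-3p. With 2 libraries of 1 group, no likeness of pattern across conditions could be measured.

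Other miRNAs with roles in lipid and glucose metabolism gave the setting. Of 39 names on 3 lists, 34 had a row and 25 (64.1%) had at least 10 RPM in both libraries, against 335 of all 1497 names (22.4%). From the 39, 7 were above miR-103a-3p, against 35 of all 1497. The lists were chosen with earlier results of these data known, so these shares are descriptive. The cholesterol and lipid list had 12 of 19 at that level, led by miR-27b-3p (50503 ± 2374 RPM), miR-10b-5p (20818 ± 1303 RPM) and miR-26a-5p (12190 ± 1434 RPM). Its miR-128-3p and miR-148a-3p had 874 and 915 RPM and 5146 and 7161 RPM, each far above both miR-33 guides. MiR-128-3p and miR-148a-3p were picked after their values were seen. The list names that had a row but fell short of 10 RPM were far lower. These were miR-122-5p, miR-145-5p, miR-370-3p and miR-758-3p, each under 1 RPM in both libraries. MiR-144-3p, miR-223-3p and miR-613 had no row.

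The insulin and glucose list had 9 of 12, led by let-7a-5p, let-7f-5p and miR-29a-3p (1686 ± 235 RPM), with no row for miR-802 and miR-223-3p. The list for brown fat and mitochondrial energy, the setting of miR-378, had 4 of 9. It was led by miR-196a-5p (366 ± 12.7 RPM by its higher copy, 269 RPM by the lower), miR-193b-3p (227 ± 3.84 RPM) and miR-455-3p (106 ± 52.4 RPM). MiR-455-3p had 144 RPM in replicate 1 and 69.4 RPM in replicate 2, where miR-365a-3p (98.8 RPM) was above it. None of the list approached miR-378a-3p. MiR-133b had no row.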

How the data were processed

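Small RNA sequencing was done on 2 libraries of DMSO-treated A375 cells. Per the labels' protocols, RNA was extracted with a miRNeasy kit and libraries followed Illumina protocols. The submitters' processing notes name CASAVA 1.8 and cutadapt 1.2.1. The aligner, annotation release and build are not stated there. The authors deposited RPM, reads per 1000000 read assignments, 1 value for each hairpin, mature miRNA and library, with decimal commas. In each column all deposited values were whole multiples of the lowest one above 0 (100% within 0.01 reads), which gave the reads behind each RPM value. Columns were assigned to libraries by their descriptions in the labels.

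For each mature name the highest copy was used, because both rows of miR-103a-3p, the only member with several, were nearly equal. Over the whole table, copies were within 5% of each other for 27 of 34 such names at 10 RPM or more, and 7 names differed by more, so for those the choice sets the level. Ranks and percentages refer to the table so reduced, 77.6% and 78.3% of the deposited total. Log2 ratios used a pseudocount of 1 RPM, which understates ratios of low miRNAs. Fisher's exact test compared libraries for names with 10 reads or more in sum, with 0.5 reads added for folds. It was also run on simulated reads with counting error only, which cannot show how it treats further spread between libraries. No condition was tested. Intervals are exact 95% intervals (Poisson for RPM, Clopper-Pearson for shares).

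RefSeq gave a sequence for 1317 of 1497 mature names and all 9 members. Positions come from GENCODE 29. Introns were counted in the principal coding transcript of each host. Scripts used Python 3.11.15, pandas 2.3.3 and scipy 1.17.1. The members and lists were chosen with earlier results of these data known. All member rows, the neighbours in level, the top 3 of each list and list names without a row were named by rule. MiR-122-5p, miR-128-3p, miR-133a-3p, miR-145-5p, miR-148a-3p, miR-192-5p, miR-211-5p, miR-370-3p, miR-378f, miR-758-3p and miR-6838-5p were chosen after their values were seen. Alternatives were summed copies, other RPM minima, pseudocounts, fold limits and scalings, removal of the most abundant miRNA, and each library alone.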

Additional observations from a re-analysis of the deposited data

How the results depend on the processing

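Over 34 results and 156 alternatives, no ratio or difference changed sign, but little could have changed it. Levels, shares and counts have no sign, and the same pseudocount on both sides cannot reverse a ratio. Summing copies only raised the higher side of the ratios it changed. Of the 94 alternatives that keep both libraries, 75 left the value within the spread between libraries, within 1.5 times for counts, or on their side of the threshold. Many of these could not move the value, so the count overstates stability. Summing copies leaves the level of a name with 1 row as it was, and scaling by the median ratio cancels in a share. Summing copies moved the miR-103a-3p level to 8683 RPM, the level of the seed GCAGCAU to 9302 RPM, log2 miR-103a-3p over miR-107 to 3.81 and the 5p over 3p ratio of mir-103a-2 to -11.85, because it counts most reads of both mir-103a hairpins again. It also changes the total: the miR-103 and miR-107 share became 0.930%, the miR-33 share 0.0142% and the miR-378 share 0.351%. A pseudocount of 10 RPM gave 2.80 for log2 miR-103a-3p over miR-107, -2.35 for miR-33a-5p over miR-33b-5p, 1.13 for mir-33a and -8.57 for mir-103a-2 (5p over 3p), and one of 0.1 RPM gave -11.57 for mir-103a-2. A minimum of 100 RPM left 4 members, 5 of the insulin and glucose list and 2 of the brown fat and mitochondrial energy list. A fold above 1.5 called 81 names between libraries and one above 3 called 16, with 0 members, since miR-378a-5p at log2 1.12 (adjusted p = 7.5e-22 by Fisher's exact test) is under 3-fold. Over its 5 alternatives the adjusted p ran from 7.4e-22 to 3.4e-18 (Fisher's exact test). With 2 libraries, the value of each alone lies within 1 SD of the mean by construction, and each alone had 7 members at 10 RPM or more. No paired analysis was possible because there is 1 group. Depth limits miR-33a-3p and miR-103a-2-5p, at 16 to 37 reads.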

Other observations

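The first bases of miR-103a-3p and miR-107 also occur, shifted by 1 position, in the miR-15/16 family, known as repressors of cell cycle genes. Bases 1 to 7 of miR-103a-3p (AGCAGCA) are bases 2 to 8, the seed, of 7 mature names in the table. The sequences are shown with the seed in capitals:
hsa-miR-103a-3p: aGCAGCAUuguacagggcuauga
hsa-miR-16-5p: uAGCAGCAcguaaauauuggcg
hsa-miR-15b-5p: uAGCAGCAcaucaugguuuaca

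MiR-103a-3p with miR-107 summed to 5662 RPM in replicate 1 and 4289 RPM in replicate 2, against 11615 RPM and 15607 RPM for these 7, which stood 2.05-fold and 3.64-fold higher. The guides miR-103a-3p and miR-107 were higher in replicate 1, while the sum of the 7 was higher in replicate 2. Of the 8 names listed for this group, 6 reached 10 RPM in both libraries. They were led by miR-16-5p (12532 ± 2735 RPM), miR-15b-5p (484 ± 84.1 RPM) and miR-15a-5p (438 ± 3.68 RPM; SD, n = 2 each), while miR-646 had no row. The seventh name with that seed, miR-6838-5p, was not on the list.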
